A study of Mus musculus with 10 samples.

Results

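Transcripts of p300, CBP and 6 related histone acetyltransferases were followed through 8 mRNA libraries of mouse embryonic stem (ES) cells in which Pontin, Oct4 or the long intergenic non-coding RNA linc1253 had been depleted. The genes were Ep300 (p300), Crebbp (CBP), Kat2a (Gcn5), Kat2b (Pcaf), Kat6a (Moz), Kat6b (Morf), Kat7 (Hbo1) and Kat8 (Mof). They were found by matching these symbols to the Ensembl identifiers in the first column of the 2 count tables, and all 8 were matched, out of 22713 gene identifiers. The set was chosen by the normalized read counts of Ep300 in Pontin-depleted cells, close to the undepleted level after 3 days and lower after 4, and with the other values of that treatment known. All values of Pontin-depleted cells are therefore descriptions, and none of them was tested. In the order above, the annotation of the mouse build NCBIM37 names the last 4 genes by the older symbols Myst3, Myst4, Myst2 and Myst1.

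Histone acetyltransferases move an acetyl group from acetyl coenzyme A onto lysines of histones, and acetylated histones are found at active promoters and enhancers. p300 and CBP are large, closely related coactivators that are brought to DNA by transcription factors, Gcn5 and Pcaf are the catalytic subunits of the SAGA and ATAC complexes, and the other 4 belong to the MYST family and work with scaffold proteins. In ES cells, p300 is known as a marker of active enhancers, many of which are bound by Oct4, and Pontin itself is a subunit of a complex built around another acetyltransferase, Tip60 (Kat5).

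The undepleted library (called WT) came from Pontinf/f; CreER ES cells, in which both Pontin alleles carry loxP sites around exon 3 and a tamoxifen-activated Cre transgene is present, before 4-hydroxytamoxifen (OHT) was given. This line was made from blastocysts, and WT had no treatment at all, so OHT itself and the loss of Pontin cannot be told apart. OHT deletes the exon, and the same line was sequenced on day 3 (the library OHT 3D) and on day 4 (the library OHT 4D) of this treatment, and days 3 and 4 refer to these libraries throughout. The Oct4-depleted library (Tc 2D) came from another line, ZHBTc4, in which tetracycline (Tc) shuts off Oct4, after 2 days of Tc. ZHBTc4 cells infected with a pLKO control lentivirus (shRNA control, 2 libraries) or with pLKO-shlinc1253 (2 libraries) were collected 4 days after infection, and no Tc treatment is stated for them. Every library of the first set (WT, OHT 3D, OHT 4D and Tc 2D) stands alone in its group, so the 3 depletions against WT have no replicate check, and they share the WT library. The study lists this first set under 1 sequencer model and the shRNA and ChIP libraries under another, so comparisons between these sets also cross instruments. Chromatin of untreated ZHBTc4 cells, immunoprecipitated with an antibody against Pontin or, as control, GFP, was sequenced in 1 library each. Nothing in the labels says whether the 2 libraries of a shRNA group came from separate cultures, so p-values measure the spread between these libraries, which may be technical. The methods of the study describe ES cells grown with mouse embryonic fibroblast feeders or without them, and do not say which applied to each library.

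Between 17187595 and 37951742 reads fell on genes in each mRNA library, and the 8 acetyltransferases were covered by between 366 (Crebbp, OHT 4D) and 10278 reads (Kat6b, sh-linc1253 1) per library. Ruvbl1, which encodes Pontin, stood at 198 CPM (normalized read counts, scaled to library size) in WT, 33.3 on day 3 and 50.9 on day 4, and also at 85.0 at Tc 2D. Pou5f1, which encodes Oct4, stood at 301 CPM in WT and 21.1 at Tc 2D. The pluripotency markers (14 genes) summed to between 4175 and 4550 CPM in WT, OHT 3D and OHT 4D, to 698 CPM at Tc 2D and to between 6654 and 7390 CPM in the 4 shRNA libraries, with none listed at 0 in any library. The 25 fibroblast markers summed to 1097 CPM in WT, 1535 on day 3, 1704 on day 4 and 921 at Tc 2D, and 21 of the 23 tested were called up on day 3 and 22 on day 4 (a log2 fold change past 0.58 against WT). Lum was listed at 0 in WT and OHT 3D, and Postn, Acta2, Dcn, Lum and S100a4 at Tc 2D, and the trophectoderm marker Elf5 at 0 in WT. Trophectoderm markers (11 genes) summed to 105 CPM in WT, 169 on day 3, 338 on day 4 and 538 at Tc 2D, and primitive endoderm markers (12 genes) to 261, 377, 447 and 657 CPM in the same order. Of 10 trophectoderm markers tested, 5 were called up and 1 down on day 3. On day 4, 6 were called up and 0 down, with 4 of the 10 below 0, and at Tc 2D 9 up and 0 down. Of 11 primitive endoderm markers tested, 5 were called up and 1 down on day 3, and 8 up and 0 down on day 4. At Tc 2D, 6 of these were called up and 1 down. These cells were sequenced in bulk, so fewer cells of a type and less RNA per cell cannot be told apart, and the part of the other cell types in the values below was not tested.

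The promoters of 7 of the genes are described, and 3 of them are shown here, those of the CBP/p300 pair, which hold GC boxes, and that of Kat2a, which holds none. The stretches are the 250 bases upstream of each gene's annotated start in NCBIM37, written 5′ to 3′ on the gene's own strand, with GC boxes (GGGCGG or its reverse complement CCGCCC, overlapping copies included) in capitals. Ep300 is on the plus strand (chr15:81415531-81415780), Crebbp on the minus strand (chr16:4213405-4213654) and Kat2a on the minus strand (chr11:100573780-100574029).
Ep300: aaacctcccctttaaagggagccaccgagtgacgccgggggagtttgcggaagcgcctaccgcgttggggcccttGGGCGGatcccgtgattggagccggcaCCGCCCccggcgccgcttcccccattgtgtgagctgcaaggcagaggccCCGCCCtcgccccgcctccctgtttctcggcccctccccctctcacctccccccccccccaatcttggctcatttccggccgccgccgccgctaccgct
Crebbp: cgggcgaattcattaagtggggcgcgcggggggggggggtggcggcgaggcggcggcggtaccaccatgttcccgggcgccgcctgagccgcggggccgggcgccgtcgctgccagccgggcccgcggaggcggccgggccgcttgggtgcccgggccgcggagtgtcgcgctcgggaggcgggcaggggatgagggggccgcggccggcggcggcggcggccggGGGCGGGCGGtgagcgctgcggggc
Kat2a: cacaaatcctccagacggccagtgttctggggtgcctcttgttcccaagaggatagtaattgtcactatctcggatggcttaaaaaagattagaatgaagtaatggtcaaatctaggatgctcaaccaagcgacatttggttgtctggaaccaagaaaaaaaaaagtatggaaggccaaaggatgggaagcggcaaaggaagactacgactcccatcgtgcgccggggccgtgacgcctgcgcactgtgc

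Ep300 held 3 GC boxes in this window, Crebbp 2 and Kat6b 8, whereas Kat8 held 1 and Kat2a, Kat2b and Kat7 held 0. The GC content was 70.8% for Ep300, 84.0% for Crebbp and 83.2% for Kat6b, and lay between 38% (Kat2b) and 51.2% (Kat8) for the other 4. Across 22380 promoters of protein-coding genes the median GC content was 54.0% and the median number of CpG dinucleotides was 8, against 24 in Ep300, 44 in Crebbp and 33 in Kat6b. At least 1 GC box was present in 39.6% of all promoters. A CCAAT box (CCAAT or ATTGG) was found in Ep300 (2 copies), Kat7 (2 copies) and Kat8 (1 copy), and in 35.0% of all promoters. The Oct4 octamer ATGCAAAT, looked for on both strands, was in none of the 7 windows and in 1.62% of all promoters. The motif matches describe letters in this window and say nothing of binding, and another start site would give another window.

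Compared per kilobase of merged exon, Kat2a and Kat7 were the most abundant of the 8 transcripts in all 8 libraries, and Crebbp was the least abundant in 7. Kat2a stood at 44.8 CPM per kb in WT, 44.0 on day 3, 48.4 on day 4 and 34.4 at Tc 2D, and Kat7 at 39.9, 42.3 and 37.5 CPM per kb in WT and on days 3 and 4. Crebbp stood at 3.24 CPM per kb in WT and 9.94 at Tc 2D, where Kat2b, at 6.21, was the lowest of the 8. Ep300 took place 6 in WT, OHT 3D and OHT 4D, with 14.1, 14.9 and 7.68 CPM per kb, and place 3 at Tc 2D, with 22.1. Kat6b, Kat8, Kat2b, Ep300 and Kat6a lay between 10.5 and 22.9 CPM per kb in WT, and Kat6b (22.6) and Kat8 (22.9), neighbours in that order, were closer than the 2 shRNA control libraries were for Kat8 (18.2 and 22.8). In the shRNA libraries Kat7 was ahead of Kat2a, at 37.5 and 39.5 against 35.2 and 37.7 CPM per kb in the controls and at 35.5 and 38.8 against 34.4 and 38.3 after knockdown, and the ranges of the 2 genes overlapped in both groups.

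**Figure D1:**
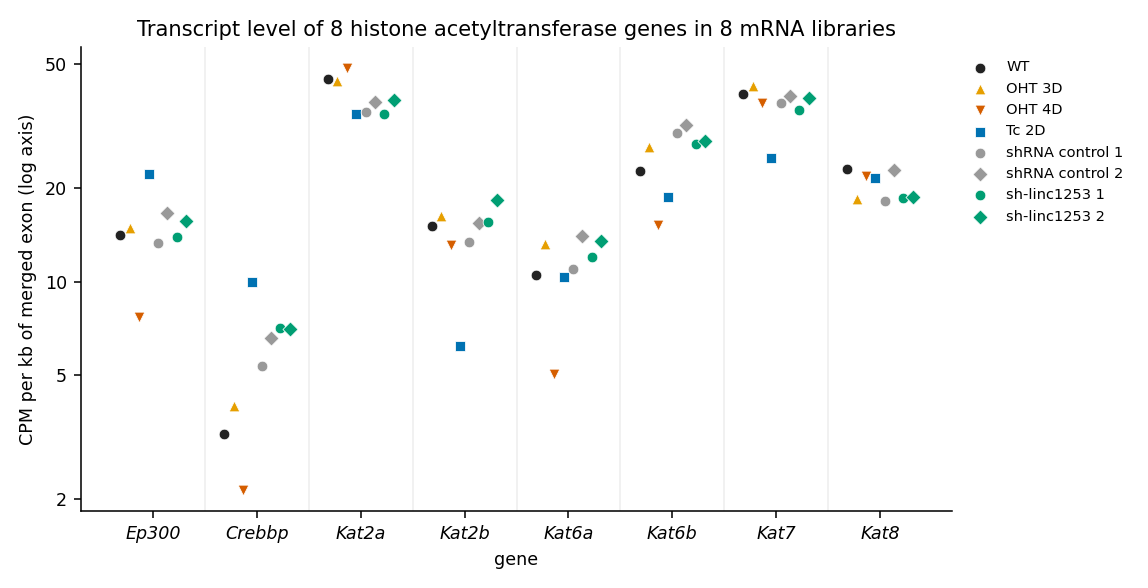
Transcript level of each of the 8 genes in CPM per kb of merged exon (vertical log axis) in every mRNA library, with 1 point per library. Ep300, Crebbp, Kat6a and Kat6b have their lowest point on day 4, and Kat2b and Kat7 at Tc 2D.

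The CBP/p300 pair was lower on day 4 and not on day 3. Ep300 (chr15:81415781-81482507, plus strand) stood at 158 CPM in WT, 167 on day 3 and 86.3 on day 4. The log2 fold change of CPM plus 1 against WT was 0.08 on day 3, with a 95% counting interval of 0.01 to 0.14, and -0.87 on day 4, with an interval of -0.96 to -0.80. Crebbp (chr16:4084048-4213404, minus strand) stood at 24.4 CPM in WT, 29.9 on day 3 and 16.0 on day 4, with log2 fold changes of 0.28 (interval 0.13 to 0.46) and -0.57 (interval -0.80 to -0.41). The OHT 4D library was thus the lowest of the 8 for both coactivators. Counting intervals are of the scaled read ratio without the added 1. They cover only the sampling of reads in these libraries, not the spread between cultures.

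The GNAT enzymes Kat2a and Kat2b lay nearer the WT level on day 4. Kat2a (chr11:100566060-100573779, minus strand) stood at 160 CPM in WT, 157 on day 3 and 173 on day 4, with log2 fold changes of -0.03 and 0.11. Kat2b (chr17:53706186-53812045, plus strand) stood at 73.6, 79.2 and 63.8 CPM, with log2 fold changes of 0.10 and -0.20.

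Of the MYST enzymes, the paralogs Kat6a and Kat6b, which pair with Brpf scaffolds, were higher than WT on day 3 and, like Ep300, lower on day 4. Kat7 and Kat8 lay nearer WT on day 4. Kat6a (chr8:23970007-24053731, plus strand) stood at 96.4 CPM in WT, 121 on day 3 and 46.3 on day 4, with log2 fold changes of 0.33 (interval 0.25 to 0.41) and -1.04 (interval -1.17 to -0.95), the lowest value among the 8 on day 4. Kat6b (chr14:22319076-22491354, plus strand) stood at 217, 259 and 146 CPM, with log2 fold changes of 0.26 and -0.57. Kat7 (chr11:95135573-95171560, minus strand), which acetylates H3 and H4 in complexes with Brpf or Jade proteins, stood at 221, 234 and 208 CPM, with log2 fold changes of 0.08 and -0.09. Kat8 (chr7:135056031-135069346, plus strand), the H4 acetyltransferase of the MSL and NSL complexes, stood at 36.1, 28.9 and 34.2 CPM, with log2 fold changes of -0.31 (interval -0.47 to -0.17) and -0.07. Kat8 was thus the member with the lowest value against WT on day 3, where Kat6a had the highest.

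At the threshold the study used, a log2 fold change past 0.58 either way, 0 of the 8 were called up and 0 down on day 3, where 6.01% of 13449 genes tested were called up and 5.88% down. At OHT 4D, Ep300 and Kat6a were called down and 0 up, where 6.48% of genes were called up and 8.89% down. Crebbp and Kat6b, both at -0.57, lay just outside, and with a pseudocount of 0.5 Crebbp was called too, at -0.59. In OHT 4D against OHT 3D, Ep300 (-0.94), Crebbp (-0.86), Kat6a (-1.37) and Kat6b (-0.83) were called down and 0 of 8 up, where 5.47% of genes were called up and 8.84% down. These contrasts chose the set, and nothing is read from the counts. The median over the 8 genes was 0.09 on day 3 and -0.39 on day 4, against medians of -0.02 and -0.00 over all genes tested.

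**Figure D2:**
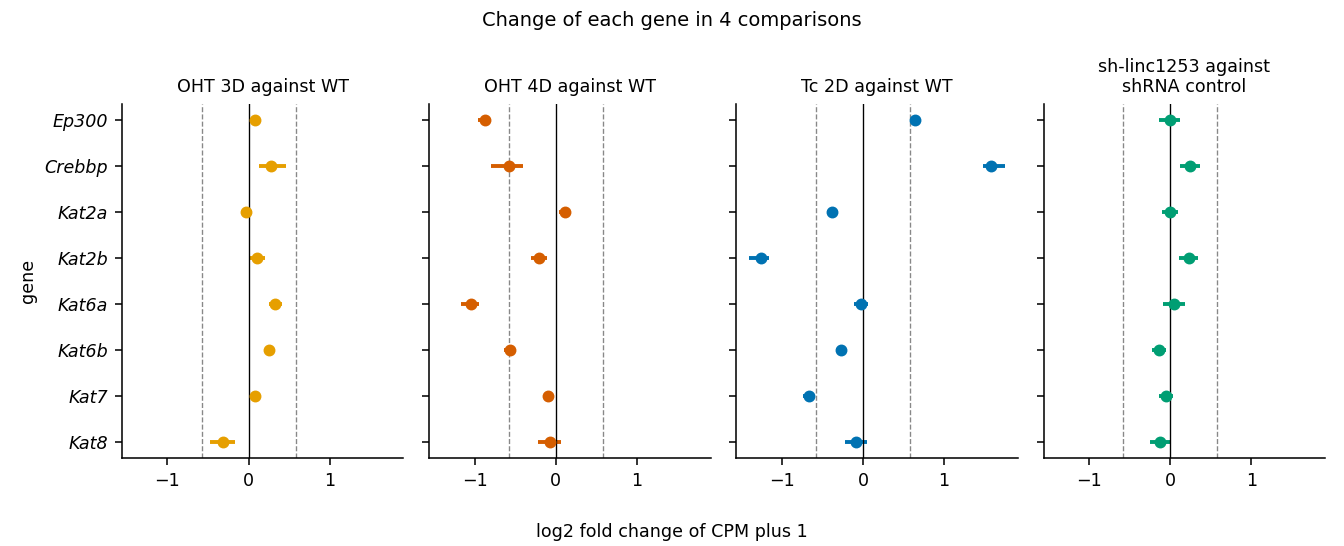
Log2 fold change of CPM plus 1 (horizontal axis) of each gene in 4 comparisons, with dashed lines at the 0.58 threshold. Bars are 95% counting intervals from the reads of 1 library a side in the first 3 panels and the standard error over 2 libraries a side in the last, where no gene passed the test, and Kat6a, Ep300, Crebbp and Kat6b are the lowest on day 4.

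The 4 genes with the lowest values against WT on day 4 were also the 4 with the longest transcripts. Merged exons spanned 11.2 kb for Ep300, 9.57 kb for Kat6b, 9.18 kb for Kat6a and 7.51 kb for Crebbp, and between 1.57 kb (Kat8) and 5.54 kb (Kat7) for the other 4. Over the whole table, the 2076 genes with more than 7 kb of exon had a median log2 fold change of -0.30 on day 4, and 24.9% of them were called down. The 2506 genes of up to 2 kb had a median of 0.19, and 3.95% of them were called down. Across 13447 genes with a length, Pearson's r between the log2 fold change and log2 of exon length was -0.31 on day 4 and 0.12 on day 3, as a description, since all points share the same 2 libraries. After subtraction of the running median over genes of similar length, an alternative chosen after seeing the data, the values on day 4 were -0.51 for Ep300, -0.33 for Crebbp, -0.73 for Kat6a and -0.23 for Kat6b, so that Kat6a alone remained past the threshold. The part of transcript length in the lower values was not tested, nor was the RNA quality of the OHT 4D library, which can also show as lower values of long transcripts.

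**Figure D3:**
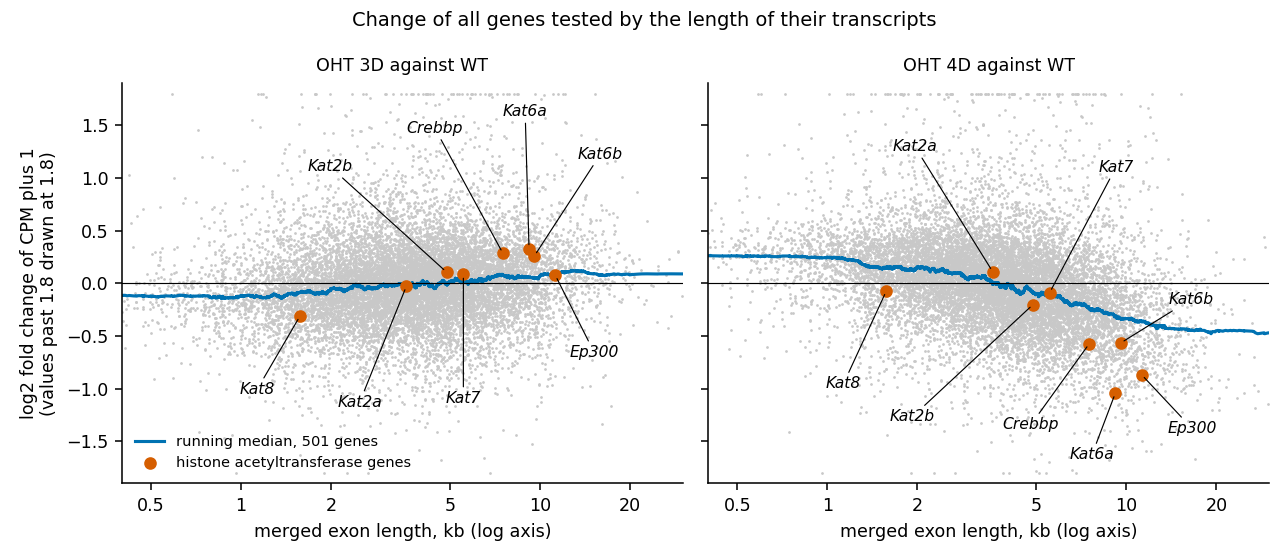
Log2 fold change on day 3 (left) and OHT 4D (right) of every gene tested (grey points) against merged exon length in kb (log axis), with the running median over neighbouring genes (blue line) and the 8 acetyltransferase genes (orange). Ep300, Crebbp, Kat6a and Kat6b lie below the blue line on day 4, and on day 3 Crebbp, Kat6a and Kat6b lie above it, with Ep300 at -0.02 from it.

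In Oct4-depleted ES cells the members moved in both directions, with the coactivator pair higher and Kat2b and Kat7 lower. Ep300 stood at 248 CPM at Tc 2D against 158 in WT, a log2 fold change of 0.64 (interval 0.59 to 0.71). Crebbp stood at 74.6 CPM against 24.4, a log2 fold change of 1.58 (interval 1.48 to 1.75). For both genes, Tc 2D was the highest of the 8 libraries. Kat2b stood at 30.2 CPM against 73.6, a log2 fold change of -1.26 (interval -1.41 to -1.16), and Kat7 at 139 against 221, a log2 fold change of -0.67 (interval -0.74 to -0.61). For these genes, Tc 2D was the lowest of the 8 libraries. Kat2a stood at 123 CPM with a log2 fold change of -0.38, Kat6b at 179 with -0.27, Kat6a at 94.8 with -0.02 and Kat8 at 33.9 with -0.09.

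The 2 called up and 2 called down of 8 compare with 23.9% called up and 25.8% called down among all genes, shares of members close to the background. WT and Tc 2D differ in line as well as in Oct4, and the line and the depletion cannot be told apart in this contrast. The 2 ZHBTc4 shRNA control libraries share the line, but were infected, sequenced on another instrument model and normalized in the other table. Against their mean, Ep300 had a log2 fold change of 0.57, Crebbp 0.73, Kat2b -1.19, Kat6b -0.72 and Kat7 -0.62. Crebbp was then called up and Kat2b, Kat6b and Kat7 down, where 18.5% of genes were called up and 28.5% down. Crebbp was at 40.2 and 49.4 CPM in these controls against 24.4 in WT, and its change depended most on the control chosen. Kat6b was at 288 and 305 CPM in these controls against 217 in WT, and it was not called against WT. With both tables on 1 median-ratio scale, which moved the log2 values of this contrast by a median of 0.18, up calls went from 39.3% to 52.7% of all calls, and Ep300 and Crebbp were called up and Kat2b alone down, where 24.3% of genes were called up and 21.8% down. In the study's own contrast, the genes with over 7 kb of exon had a median of 0.27 and those up to 2 kb one of -0.39. The length-adjusted values were 0.28 for Ep300, 1.38 for Crebbp, -1.23 for Kat2b and -0.81 for Kat7, which left Ep300 under the threshold.

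No member passed the test after linc1253 knockdown, where limma with trend called 0.0% of 13407 genes. linc1253 itself was not analysed here, so the knockdown has no check in these values. Ep300 stood at 150 and 186 CPM in the controls and at 157 and 176 after knockdown, with the knockdown libraries inside the range of the controls. Crebbp stood at 40.2 and 49.4 CPM in the controls and at 53.2 and 52.7 after knockdown, and the groups did not overlap, as was the case for 38.0% of all genes tested and for 3 of the 8 members, a share near that of all genes. Its log2 fold change was 0.24 ± 0.12 (SE, n = 2 a group), with a limma adjusted p of 0.709, two-sided and adjusted over all genes tested. Kat2b stood at 65.2 and 75.3 CPM in the controls and at 75.8 and 88.9 after knockdown, also without overlap, with a log2 fold change of 0.23 ± 0.12 (SE) and a limma adjusted p of 0.721. Kat6b, at 288 and 305 CPM against 265 and 271, was lower without overlap, with a log2 fold change of -0.14 ± 0.08 (SE) and a limma adjusted p of 0.738. Kat2a (126 and 134 CPM against 123 and 137), Kat6a (101 and 128 against 110 and 124), Kat7 (208 and 219 against 196 and 215) and Kat8 (28.6 and 35.8 against 29.1 and 29.5) overlapped between groups, with log2 fold changes between -0.12 and 0.04 and limma adjusted p values of 0.866 or more.

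Over the whole table limma called 0 genes. The lowest adjusted p was 0.265, and 999 genes had an unadjusted p under 0.05, none of them a member. edgeR on the recovered reads called 0 genes and DESeq2 50, again with 0 members in either. A limma fit with the replicate number as block called 1960 of 13407 genes, Crebbp and Kat2b among them, as given with the processing settings below. The smallest unadjusted p among the 8 was 0.0932, for Crebbp.

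Ratios between paired genes within a library do not depend on how libraries were scaled to each other. Paired genes can differ in exon length, as do Ep300 (11.2 kb) and Crebbp (7.51 kb), and Kat7 (5.54 kb) and Kat8 (1.57 kb). The part of transcript length in changes of these ratios was not tested. Ep300 had 4.34 times the reads per kb of Crebbp in WT, 3.74 times on day 3, 3.60 times on day 4 and 2.22 times at Tc 2D. In the shRNA controls the ratio was 2.49 and 2.52, and after linc1253 knockdown 1.97 and 2.24. Both genes were lower on day 4 than in WT, with a change of the log2 ratio of -0.27. At Tc 2D this change was -0.97 against WT and -0.17 against the mean of the ZHBTc4 controls. The Tc 2D ratio of 2.22 lay between those of the sh-linc1253 libraries of the same line, 1.97 and 2.24. Kat2a had 2.97 times the reads per kb of Kat2b in WT, 2.70 on day 3, 3.69 on day 4 and 5.55 at Tc 2D, against 2.62 and 2.44 in the shRNA controls. The wider gap at Tc 2D was present against either control, with a change of the log2 ratio of 0.90 against WT and 1.13 against the ZHBTc4 controls. Kat6a to Kat6b stood at 0.464 in WT, 0.488 on day 3, 0.331 on day 4 and 0.552 at Tc 2D, and Kat7 to Kat8 at 1.74, 2.31, 1.73 and 1.16 in the same order. After linc1253 knockdown the log2 ratio of Ep300 to Crebbp was 1.07 ± 0.13 (SD, n = 2) against 1.32 ± 0.01 in the controls, that of Kat2a to Kat2b 1.11 ± 0.05 against 1.34 ± 0.08, that of Kat6a to Kat6b -1.13 ± 0.10 against -1.32 ± 0.19 and that of Kat7 to Kat8 0.99 ± 0.08 against 0.92 ± 0.18. Leaving out 1 library moved the difference between the groups from -0.25 to -0.16 for Ep300 to Crebbp (without sh-linc1253 1), from 0.19 to 0.05 for Kat6a to Kat6b (without shRNA control 1) and from 0.07 to -0.05 for Kat7 to Kat8 (without shRNA control 2). No test of these ratios was made.

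**Figure D4:**
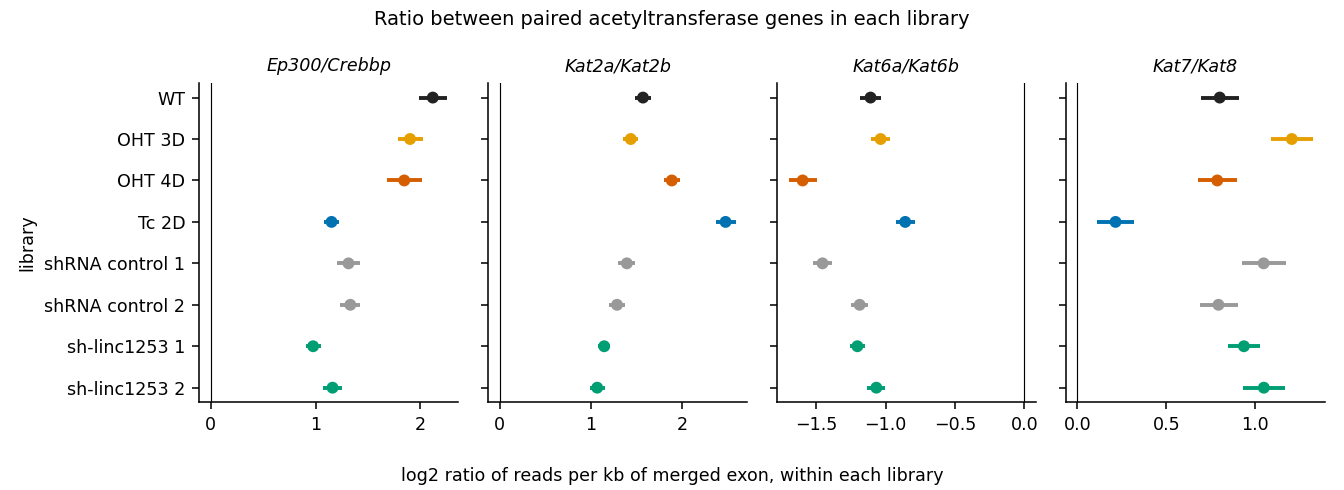
Log2 ratio of reads per kb of merged exon (horizontal axis) between paired genes in each of the 8 libraries, with 95% counting intervals as bars. Tc 2D has the highest ratio of Kat2a to Kat2b and the lowest ratio of Kat7 to Kat8, and OHT 4D the lowest ratio of Kat6a to Kat6b.

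Pontin ChIP over GFP ChIP was past a log2 ratio of 1 at the promoter of 1 of the 8 genes, Kat7, a share near that of all promoters. The region ran from 2.5 kb upstream to 500 bases downstream of the annotated start, and reads were scaled to the 40729076 reads of the Pontin and 17185883 of the GFP library. Kat7 (chr11:95171060-95174060) held 104 Pontin and 18 GFP reads, a log2 ratio of 1.29. The interval from distinct fragments, 67 and 11, ran from 0.43 to 2.43 and covered counting error only. Kat7 alone was called past a log2 ratio of 1, where 14.4% of 21193 promoters were called, and scaling by the median ratio of all promoters ended that call, at 0.95. This window of Kat7 overlaps an exon of the annotated neighbour Gm11520. Kat6a (119 and 29 reads) had a log2 ratio of 0.79 and Kat2b (110 and 27 reads) one of 0.78, Kat2a (103 and 31) 0.49, Crebbp (81 and 26) 0.39, Kat8 (85 and 30) 0.26, Ep300 (96 and 38) 0.09 and Kat6b (75 and 36) -0.19. In a window of 1 kb either side of the start, Kat7 was at 2.12, Ep300 at 0.54 and Kat6b at 0.66, and under median-ratio scaling Ep300 was at -0.25 and Kat8 at -0.08, so the sign for Ep300, Kat6b and Kat8 depended on the window or the scaling. The median was 0.44 over the 8 genes, 0.34 over all promoters and 0.47 over those of genes at 5 CPM or more in the ZHBTc4 controls. All intervals but that of Kat7 included the median of all promoters, and that of Kat7 included the median of genes at 5 CPM or more, among which it is. With 18 to 38 GFP reads a region the intervals were wide, and only those of Kat7 and Kat2b (0.20 to 1.93) excluded 0. Ep300 and Kat6a, both called down on day 4, lay at percentiles 35.0 and 77.1 of all promoters.

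**Figure D5:**
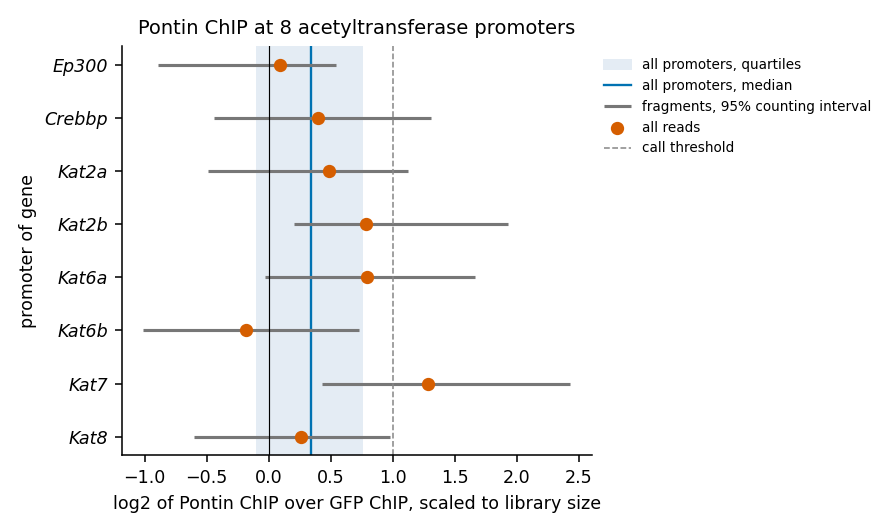
Log2 ratio of Pontin to GFP ChIP reads (horizontal axis) at the promoter of each gene (orange points), with 95% counting intervals from distinct fragments (grey bars), the quartiles and median of 21193 promoters (blue band and line) and the threshold of 1 (dashed). The Kat7 point, at 1.29, is the only one past the threshold.

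The genes whose pattern over the 8 libraries was most like that of Ep300 were Eea1, an endosomal tethering protein, Tnrc6b, a microRNA silencing factor, Trpm7, an ion channel with a kinase domain, Chd2, a chromatin remodeller, and Tjp1, a tight junction scaffold. Likeness was the root mean square difference of log2 CPM plus 1, centred within each table, over 8 libraries and 9956 genes, and it was between 0.03 and 0.06 for these 5. Eea1 stood at 30.2 CPM in WT, 30.1 on day 3, 15.5 on day 4 and 45.8 at Tc 2D. All 5 had more than 7 kb of merged exon, from 7.36 kb (Tjp1) to 17.0 kb (Tnrc6b). Among the members, Kat6a ranked 842 by this measure with a difference of 0.24 and Crebbp 1128 with 0.27, and Kat2b, at 0.69, was the least like Ep300.

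Further acetyltransferases, the nuclear receptor coactivators and the acetyltransferases of other complexes among them, had medians below 0 on day 4, and so had acetyl-lysine readers. These lists group genes by function. Over all genes tested, 6.48% were called up and 8.89% down on day 4, with 24.9% down among those of more than 7 kb of exon, and 23.9% were called up and 25.8% down at Tc 2D, and the counts in the lists are read against these shares. Of 15 further acetyltransferases, 4 were called down on day 4 and 0 up, with a median log2 fold change of -0.27 against -0.00 over all genes. Taf1, the largest subunit of TFIID, had a log2 fold change of -0.80, Ncoa1 -0.70 and Ncoa2 -0.68, and their merged exons spanned 7.33 to 14.3 kb. The remaining call was Esco2, with 4.01 kb of exon. At OHT 3D, Ncoa3 alone of this list was called, at 0.68. At Tc 2D 3 were called up (Clock 1.30, Ncoa2 1.19 and Ncoa3 0.87) and 3 down (Esco2, a cohesin acetyltransferase, -2.32, Elp3, the catalytic subunit of Elongator, -1.78, and Naa10 -1.17), a share in each direction near that of all genes. Of 18 acetyl-lysine readers, which are bromodomain and YEATS proteins together with the PHD finger proteins Dpf2 and Taf3 (the latter known as a reader of methylated H3K4), 0 were called on day 3 and 6 were called down on day 4, with a median of -0.38. Among them were Atad2b at -1.27 (4.69 kb of exon), Brwd3 at -1.01 (12.7 kb) and Cecr2 at -0.82 (13.3 kb). The part of transcript length in the values of either list was not tested. At Tc 2D, Mllt3 (1.49) and Atad2b (0.93) were called up and 0 readers down.

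Subunits of the members' complexes and factors that act through CBP and p300 were called in both directions. Of 23 SAGA and ATAC subunits, 0 were called on day 3, and Tada1 (0.58) was called up and Atxn7 (-0.61) down on day 4, with a median of -0.12. At Tc 2D, 3 were called up (Yeats2 1.09, Tada1 0.95 and Atxn7 0.90) and 2 down (Tada2a -0.67 and Taf5l -0.63). Of 20 subunits of the MYST complexes, 0 were called on day 3 and 3 were called down on day 4, namely Jade3 (-0.83), Brpf3 (-0.70) and Hcfc1 (-0.67), with a median of -0.31. At Tc 2D, Kansl1 (0.88), Ogt (0.64) and Msl1 (0.58) were called up and Wdr5 (-1.27), Ing5 (-1.04) and Mcrs1 (-0.94) down, below the shares of all genes in both directions. Of 15 factors known to bind or act through CBP and p300, Epas1, a hypoxia-inducible factor, was called up on day 3 (0.99) and 2 were called up on day 4, Cited2, a protein that competes for a domain of p300 and CBP, at 1.00 and its relative Cited1, which averaged under 5 CPM, with a list median of -0.02. At Tc 2D, 4 were called up, with Smad3 at 1.45 and Cited2 at 0.97 beside Cited1 and Cited4, and 4 down, with Epas1 at -3.26, Set at -1.24 and Ddx5 at -0.63 beside Hif1a.

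The enzymes that remove acetyl groups had a median of 0.10 on day 4, against -0.00 over all genes tested. Of 17 deacetylases, Hdac11 was called down on day 3 (-0.88) and on day 4 (-0.62), Hdac7 was called up on day 4 (0.62), and the median was -0.14 on day 3. On day 4, genes of over 2 and up to 4 kb of exon had a median of 0.06, and those of over 4 and up to 7 kb one of -0.10. Hdac11 has 3.85 kb and Hdac7 5.53 kb of exon. The part of transcript length in the deacetylase median was not tested. At Tc 2D, 5 were called down, with Hdac1, a subunit of the NuRD and Sin3 complexes, at -1.39, Sirt1 at -1.23 and Hdac3 at -0.79 beside Hdac2 and Hdac8, and 2 up, Hdac7 at 1.25 and Sirt7 at 0.82. After linc1253 knockdown 0 genes of any of these lists were called by limma, with list medians between -0.08 and 0.05. Against the ZHBTc4 controls, 20 of the 34 genes of these lists called at Tc 2D against WT were called in the same direction, against 66.6% of the 6692 genes called in the whole table, and both contrasts share the Tc 2D library. Among these were Epas1 at -2.89, Hdac1 at -1.60, Wdr5 at -1.48, Mllt3 at 1.36, Atxn7 at 1.08, Elp3 at -1.07 and Clock at 0.84. A further 11 had the same sign without passing the threshold, Hdac7 (0.20) and Yeats2 (0.37) among them, and 3 turned, with Tada1 at -0.02, Cited2 at -0.11 and Cited4 at -1.48. With both tables on 1 median-ratio scale, 22 were called in the same direction and Cited4 (-1.31) turned, while Tada1 (0.15) and Cited2 (0.07) were above 0.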

How the data were processed

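mRNA was poly(A)-selected, and per the study's methods the authors trimmed reads below PHRED 20, aligned them to NCBIM37 with TopHat (2 mismatches, up to 10 locations), counted them per gene with HTSeq and deposited normalized CPM (TMM in edgeR) as 2 tables of 4 libraries each, with versions not given in the sources used here. The deposited ChIP files list 1 read per line, aligned by the authors with Bowtie2, with its mapping quality as the score. All 22713 identifiers were read, symbols came from a name table that matched 22337 of them, and CPM values were whole reads in 100% of cases (within 0.01 read).

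Genes above 1 CPM in at least 1 library of a comparison's table were tested. Log2 fold changes used a pseudocount of 1 and the study's threshold of 0.58, with 95% exact conditional binomial intervals from the recovered reads, which hold no pseudocount. The linc1253 knockdown was fitted with limma 3.58.1 (R 4.3.3) across all genes, two-sided, with Benjamini-Hochberg adjustment and a threshold of 0.05, and with edgeR 4.0.16 and DESeq2 1.42.0 as alternatives. These functions were tested on simulated data. Exon lengths are merged exons of the GENCODE annotation of NCBIM37, and promoter bases come from that genome. The promoter sequence of Kat6a is not reported here.

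All 8 members were named. From each further list up to 3 rises and 3 falls past 0.58 at a mean of 5 CPM or more were named, and the other names there were added after their values were seen. The members and lists were chosen with earlier results of these data known.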

Additional observations from a re-analysis of the deposited data

Results flagged for a closer look

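In 6 of the 8 genes OHT 3D lay above WT and OHT 4D below it, with both counting intervals away from 0, as in 6.97% of 13393 genes with reads in all 3 libraries. The set was chosen with these values known, so nothing is read from the count. The log2 fold change of OHT 4D against OHT 3D was -0.94 for Ep300, -0.86 for Crebbp, -1.37 for Kat6a, -0.83 for Kat6b, -0.31 for Kat2b and -0.17 for Kat7. With 1 library a time point the difference was not tested. Over the same contrast the genes with more than 7 kb of merged exon had a median of -0.33 and those of up to 2 kb one of 0.32. After adjustment for exon length the values were -0.54 for Ep300, -0.60 for Crebbp, -1.06 for Kat6a, -0.49 for Kat6b, -0.25 for Kat2b and -0.07 for Kat7. Against WT, the adjusted values were -0.02 for Ep300 on day 3 and 0.02 for Kat7 on day 4, so these genes no longer lay above WT on day 3 and below it on day 4.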

How the results depend on the processing

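A pseudocount of 0.5 or 3 and median-ratio scaling left the members in the same direction in the 4 contrasts against or between WT, OHT 3D, OHT 4D and Tc 2D, except Kat6a at Tc 2D, at 0.02 under median-ratio scaling. A pseudocount of 3 gave 445 genes up and 498 down at OHT 3D, 496 up at OHT 4D and 368 up in OHT 4D against OHT 3D. A threshold of 1 gave 255 up and 125 down at OHT 3D, 320 up and 216 down at OHT 4D with 1 member down (Kat6a), 62 up and 262 down in OHT 4D against OHT 3D with 1 member down (Kat6a), and 1718 up and 1696 down at Tc 2D with 1 member up (Crebbp) and 1 down (Kat2b). Adjustment for exon length, chosen after seeing the data, left 1 member called down at OHT 4D, where 816 genes were down, 2 called down in OHT 4D against OHT 3D, where 825 genes were down and 486 up, and 1 called up at Tc 2D, where 3308 genes were up. The ZHBTc4 controls as deposited gave 1 member up and 3 down at Tc 2D, where 18.5% of genes were up and 28.5% down. On 1 median-ratio scale they gave 2 members up and 1 down, where 24.3% of genes were up and 21.8% down. For linc1253 knockdown, the libraries with the same number deviated together (r = 0.67 over 13407 genes, 2 pairs), but the number is all they are known to share. With the replicate block limma called 1960 genes and 2 members, Crebbp (adjusted p = 0.0259) and Kat2b (adjusted p = 0.0113). DESeq2 called 50 genes, and 154 had an unadjusted limma p under 0.05 with a log2 fold change past 0.58. Leaving out 1 library called between 0 and 17 genes, 3 without shRNA control replicate 2 and 17 without sh-linc1253 replicate 1, and 0 members. With 1 library left out, the direction of 5 uncalled members turned in at least 1 case, with Ep300 between -0.16 and 0.15, Kat2a between -0.080 and 0.072, Kat6a between -0.13 and 0.21, Kat7 between -0.12 and 0.010 and Kat8 between -0.28 and 0.036. Crebbp ran from 0.098 without shRNA control replicate 1 to 0.39 without shRNA control replicate 2, and Kat2b from 0.11 without sh-linc1253 replicate 2 to 0.34 without sh-linc1253 replicate 1. For Pontin ChIP, median-ratio scaling called 1270 promoters and 0 members, a threshold of 0.58 called 7310 promoters and 3 members, and a window of 1 kb either side called 5324 promoters. The causes of these shifts were not tested.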
